A study of Rattus norvegicus with 8 samples.

Results

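The genes described here are 10 targets of the hypoxia-inducible factors (HIFs) that act in glucose uptake, glycolysis and lactate export, measured in the Achilles tendon of rats at rest and right after running. They were chosen by gene symbol, as Slc2a1, Slc2a3, Hk1, Hk2, Pfkfb3, Pfkfb4, Pgk1, Ldha, Pdk1 and Slc16a3. Of the 15590 genes in the table, 9 were these, since no row carried the symbol Pfkfb4. Pfkfb4 thus has no expression values here and enters only the search of promoters. Of the 13863 genes that passed the filter on low values, 8 were these, and Slc2a3 was below it. All animals were wild-type males of the Sprague-Dawley strain, aged between 8 and 10 weeks, and polyadenylated RNA was taken from the Achilles tendon of the right leg. The 4 libraries of the 0 h p.r. (post-running) group came from rats killed directly after 1 h of uphill treadmill running. The 4 libraries of the naïve control (NC) group came from rats that kept their normal activity. By the study's methods, airflow and a mild electric stimulus kept the runners moving, and the controls were killed together with a group that rested for 12 h after the run. Running, handling and the hour of killing therefore cannot be told apart here. The sources name replicates and no animal for each library, so the p-values measure the spread between these libraries, which may in part be technical.

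HIFs are transcription factors whose alpha subunits are marked for degradation when oxygen is plentiful and accumulate when it is scarce. They bind short sites with the core ACGTG or GCGTG near their target genes, and the classical targets include glucose transporters, glycolytic enzymes and the lactate exporter. Together these proteins let a cell make ATP from glucose with little oxygen. Tendon is a sparsely vascularised tissue with few cells, and its cells are known for a largely glycolytic metabolism. Several of the genes are also abundant in skeletal muscle and fat, which lie next to the Achilles tendon.

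The promoters are shown first because the genes were grouped as HIF targets and the core site can be looked for in them directly. RefSeq entries on the rat build GRCr8 matched 8 of the 10 genes, each with 250 bases before and 50 bases after an annotated transcription start, and Hk1 had 2 entries. These 8 include Pfkfb4 and lack Pgk1 and Slc2a3, so they are not the 8 tested genes. The motifs searched were ACGTG and GCGTG on both strands, which read CACGT and CACGC on the opposite strand, and overlapping matches count separately. Matches were found for 5 of the 8 genes, namely Slc2a1 with 4, Ldha with 6, Pdk1 with 4, Pfkfb3 with 2 and Hk1 with 1 in 1 of its entries. Hk2, Slc16a3 and Pfkfb4 held none in this window, so the match was present in 1 of the 3 genes that rose after running and in all 4 tested genes with an entry that did not. Of all 33469 promoters in the same table, 41.6% held a match, and of the 10775 promoters of tested genes 59.7% did. These shares count promoters, whereas the 5 of 8 counts genes, with Hk1 included through 1 of its 2 entries. The lines below give the 250 bases before the start, 5′ to 3′ on the gene's strand, with matches in capitals, for the 3 genes that rose and for Ldha, which held the most matches. A match of Ldha that crosses the start shows only its first 2 bases.
Slc2a1 (chr5:138002272-138002521, plus strand): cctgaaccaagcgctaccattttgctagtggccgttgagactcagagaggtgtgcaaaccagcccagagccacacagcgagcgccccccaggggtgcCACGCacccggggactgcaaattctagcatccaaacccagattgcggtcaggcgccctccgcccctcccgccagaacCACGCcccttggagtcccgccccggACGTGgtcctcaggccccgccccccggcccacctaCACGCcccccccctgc
Slc16a3 (chr10:106712078-106712327, plus strand): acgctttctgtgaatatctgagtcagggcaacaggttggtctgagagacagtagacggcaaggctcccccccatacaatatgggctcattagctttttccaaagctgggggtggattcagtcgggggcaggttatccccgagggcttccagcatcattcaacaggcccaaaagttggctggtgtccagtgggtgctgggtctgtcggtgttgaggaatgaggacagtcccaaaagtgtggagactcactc
Hk2 (chr4:116841276-116841525, minus strand): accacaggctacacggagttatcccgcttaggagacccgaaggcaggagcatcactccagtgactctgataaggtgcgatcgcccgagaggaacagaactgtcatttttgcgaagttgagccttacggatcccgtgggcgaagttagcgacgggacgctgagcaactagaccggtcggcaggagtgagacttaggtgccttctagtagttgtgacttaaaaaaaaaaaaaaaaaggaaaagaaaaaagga
Ldha (chr1:106507842-106508091, plus strand): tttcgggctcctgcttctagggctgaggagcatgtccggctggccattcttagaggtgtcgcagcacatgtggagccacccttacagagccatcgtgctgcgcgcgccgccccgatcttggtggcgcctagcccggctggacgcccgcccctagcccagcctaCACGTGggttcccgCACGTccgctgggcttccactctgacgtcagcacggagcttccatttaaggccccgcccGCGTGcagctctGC
The window of Slc2a1 is rich in G and C, with 68.3% over the 300 bases, as is that of Ldha with 66.7%. The windows of Hk2 and Slc16a3 hold 51.0% and 54.3%. A match is a description of the sequence, and an absent match says only that these letters are not in this window.

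After running, 3 of the 8 tested genes rose, and they act where glucose enters the cell, where it enters glycolysis and where lactate leaves. These were Slc2a1, which encodes the glucose transporter GLUT1, Hk2, which encodes the hexokinase that traps glucose inside the cell, and Slc16a3, which encodes the lactate exporter MCT4. None of the 8 fell, none was lower at an unadjusted p under 0.05, and the same counts came from a voom fit to recovered reads. A gene was counted as changed at a fold of at least 2 and an adjusted p under 0.05 in limma, a linear model fitted to log2(FPKM + 0.5) over all 13863 tested genes, where FPKM is the number of fragments per kilobase of transcript at a common sequencing depth. Throughout, the error after ± is the SD over the 4 libraries of a group, and SE is the standard error of a log2 fold change. By the same rule 1.8% of all tested genes were higher and 0.894% were lower, 250 and 124 genes. Of the other 5, Ldha and Pgk1 were 1.91-fold and 1.76-fold higher on the log scale without passing the test, and Hk1, Pfkfb3 and Pdk1 had fold changes near 1. Whether these 5 differed from the 3 that rose was not tested, apart from the ratio of Hk2 to Hk1 given with the gene pairs. The median log2 fold change was 0.87 over the 8 genes and -0.0014 over all tested genes, with 6 of the 8 above 0 and 2 below. The plot of FPKM by library shows every value. The libraries also differed in the levels of markers of other tissues. The 12 skeletal muscle markers in the table summed to 5504 to 11111 FPKM at rest and to 49122, 8314, 22109 and 1471 in 0 h p.r. replicates 1 to 4. Of these 12, 10 had a positive log2 fold change and 2 a negative one, Myh7 at -3.42 and Mb at -1.12, and none passed. The 11 adipocyte markers summed to 3107 to 6242 FPKM at rest and to 1043 to 2270 after running, without overlap, and the genes are set against both lists after their own values.

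**Figure D1:**
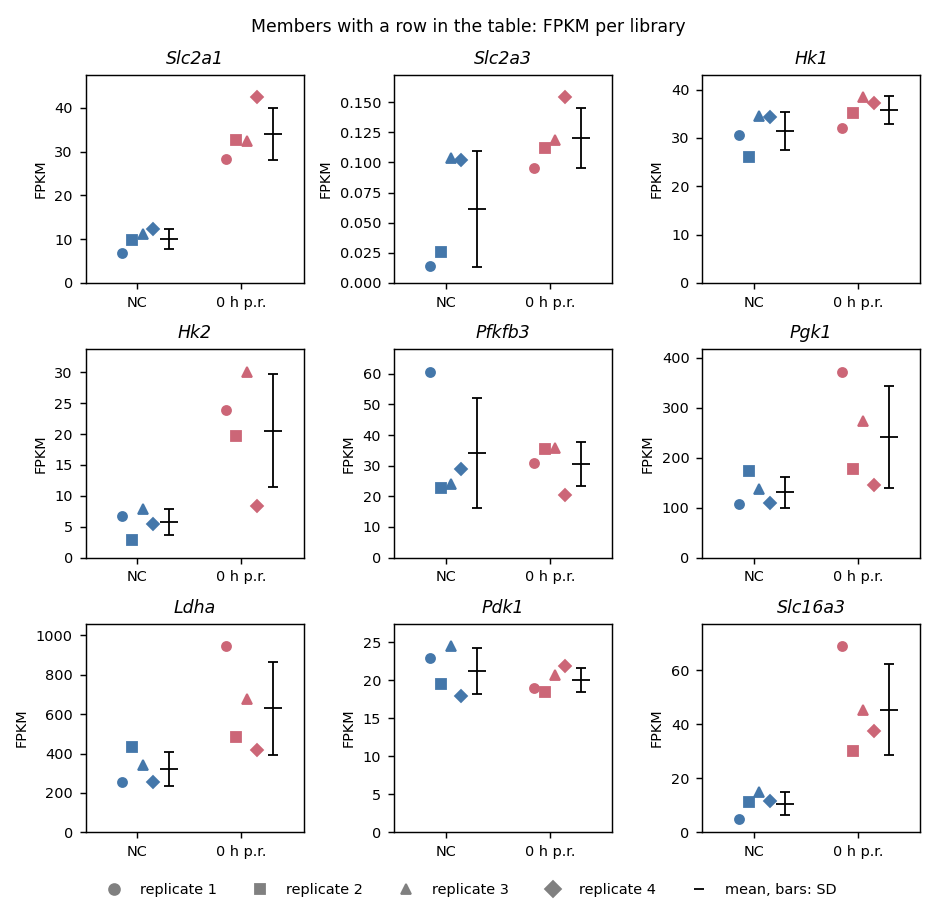
FPKM (y axis, from 0) of the 9 genes with a row, one panel each, in the 4 NC and 4 0 h p.r. libraries (x axis). Points are libraries with a shape for each replicate number, and the black marks give the mean and SD (n = 4). The groups do not overlap for Slc2a1, Hk2 and Slc16a3, and they overlap in the other 6 panels.

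Slc2a1 (ENSRNOG00000007284) encodes the transporter that brings glucose into most cell types at rest. Its FPKM was 6.88, 9.78, 11.1 and 12.4 in NC replicates 1 to 4 and 28.4, 32.6, 32.4 and 42.5 in 0 h p.r. replicates 1 to 4. Every library after running lay above every control. The mean was 10.02 ± 2.35 at rest and 34.0 ± 5.998 after running. The log2 fold change was 1.73 (SE 0.19, 95% interval 1.29 to 2.16) at an adjusted p of 0.00227 in limma. The call held in all 8 fits that each left out 1 library, with adjusted p from 0.00349 to 0.0132. These levels rested on 251 to 1989 reads per library, recovered from the steps between the FPKM values.

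Slc2a3 (ENSRNOG00000008376) encodes GLUT3, a transporter with a high affinity for glucose that is best known from neurons. It was close to the limit of detection, with 1, 1, 6 and 6 reads in NC, against 5, 8, 6 and 11 reads in 0 h p.r. In FPKM it was 0.0615 ± 0.0482 at rest and 0.120 ± 0.0249 after running, and the groups overlapped. A difference of Slc2a3 was not detectable at this depth, and limma without the filter gave an adjusted p of 0.497.

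Slc16a3 (ENSRNOG00000036677) encodes the transporter through which highly glycolytic cells release lactate together with a proton. Its FPKM was 4.88, 11.4, 15.02 and 11.4 in NC, against 68.9, 29.96, 45.4 and 37.4 in 0 h p.r. Every library after running lay above every control, and NC replicate 1 was the lowest of all. The mean rose from 10.7 ± 4.23 to 45.4 ± 16.9, a log2 fold change of 2.07 (standard error 0.35, 95% interval 1.28 to 2.86, limma adjusted p 0.0132). The adjusted p stayed under 0.05 whichever single library was left out, at 0.0165 to 0.0452. With the replicate number as a block in limma it was 0.0594, at a log2 fold change of 2.07. It was 0.0594 with a log2 fold change of 1.84 when 0 h p.r. replicates 1 and 4 were both left out, a choice made after the data were seen because these held the highest and the lowest level of skeletal muscle markers.

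The hexokinases catalyse the first step of glycolysis, and both are expressed in the tendon samples. Hk1 (ENSRNOG00000046891), the broadly expressed form, had an FPKM of 30.6, 26.1, 34.5 and 34.3 in NC, against 32.1, 35.1, 38.5 and 37.3 in 0 h p.r. Its values overlapped between the groups. The mean was 31.4 ± 3.97 at rest and 35.8 ± 2.80 after running, with a log2 fold change of 0.19, a 95% interval of -0.09 to 0.47 and a limma adjusted p of 0.413.

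Hk2 (ENSRNOG00000006116), the form typical of insulin-responsive tissues such as muscle and fat, had an FPKM of 6.75, 2.92, 7.93 and 5.39 in NC. In 0 h p.r. it had 24.0, 19.7, 30.1 and 8.40. Replicates 1 to 3 after running were far above the controls, while replicate 4 lay just above the highest control. The mean rose from 5.75 ± 2.15 to 20.5 ± 9.16, with a log2 fold change of 1.69, a standard error of 0.40, a 95% interval of 0.79 to 2.60 and a limma adjusted p of 0.0441. This call was the least secure of the 3, since it was lost in 7 of the 8 leave-one-out fits, reaching an adjusted p of 0.121 when 0 h p.r. replicate 2 was dropped. Dropping 0 h p.r. replicate 4 instead gave 0.00758 and a log2 fold change of 2.06. When the values were rescaled so that all libraries had the same FPKM total, the adjusted p of Hk2 was 0.112, at a log2 fold change of 1.72. With the replicate number as a block in limma it was 0.0536, at a log2 fold change of 1.69.

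Pfkfb3 (ENSRNOG00000018911) encodes an enzyme that makes a fructose bisphosphate that strongly activates phosphofructokinase and thereby glycolysis. Its FPKM was 60.7, 22.8, 24.1 and 28.8 in NC, against 30.8, 35.5, 35.7 and 20.5 in 0 h p.r. NC replicate 1 held the highest value of all 8 libraries, and the others of both groups overlapped. The mean was 34.1 ± 17.9 at rest and 30.6 ± 7.12 after running, with a log2 fold change of -0.07, a 95% interval of -0.77 to 0.64 and a limma adjusted p of 0.933. The log2 fold change was 0.25 when NC replicate 1 was dropped (adjusted p 0.613) and 0.11 when 0 h p.r. replicate 4 was, so its sign is not settled.

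Ldha and Pgk1 were the most abundant of the set in both groups. Pgk1 (ENSRNOG00000058249) encodes phosphoglycerate kinase, the first enzyme of glycolysis to yield ATP, and had an FPKM of 107, 173, 137 and 108 in NC, against 372, 178, 273 and 145 in 0 h p.r. Replicate 4 after running lay within the range of the controls, and replicate 2 just above it. The mean was 131 ± 30.9 at rest and 242 ± 102 after running, and the log2 fold change of 0.81 (95% interval 0.14 to 1.48) did not pass at a limma adjusted p of 0.146.

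Ldha (ENSRNOG00000013009), which encodes the lactate dehydrogenase subunit that favours the conversion of pyruvate to lactate, had an FPKM of 254, 431, 344 and 258 in NC. In 0 h p.r. it had 944, 482, 676 and 418. Replicate 4 after running was again within the range of the controls and the other 3 were above it. The mean was 322 ± 84.1 at rest and 630 ± 236 after running, with a log2 fold change of 0.93, a 95% interval of 0.28 to 1.58 and a limma adjusted p of 0.0941. The adjusted p was between 0.0523 and 0.231 when single libraries were left out. Mammalian genomes hold processed pseudogenes of Ldha, Pgk1 and several other glycolysis genes, so reads of these genes may have been split or lost in counting, which was not tested.

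Pdk1 (ENSRNOG00000001517) encodes a kinase that switches off pyruvate dehydrogenase and so keeps pyruvate out of the mitochondrial cycle. Its FPKM was 22.9, 19.5, 24.5 and 17.9 in NC, against 19.0, 18.5, 20.7 and 21.9 in 0 h p.r. The groups overlapped throughout. The mean was 21.2 ± 3.01 at rest and 20.02 ± 1.55 after running, and the log2 fold change of -0.07 had a 95% interval of -0.36 to 0.21 with a limma adjusted p of 0.801. That interval contains no change of a fold of 2 in either direction.

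The order of the genes by mean FPKM, which is a level per length of transcript, changed in the middle of the range. In NC it ran Ldha, Pgk1, Pfkfb3, Hk1, Pdk1, Slc16a3, Slc2a1, Hk2 and Slc2a3. Neighbours whose ranges over the libraries overlapped were Pfkfb3 and Hk1, Slc16a3 and Slc2a1, and Slc2a1 and Hk2. In 0 h p.r. Ldha and Pgk1 again stood above the rest and Slc2a3 below it. Between them Slc16a3, Hk1, Slc2a1, Pfkfb3, Hk2 and Pdk1 formed a single block in which each neighbour overlapped the next. Slc16a3, Slc2a1 and Hk2, all below Pdk1 at rest, then had means above it, Hk2 by less than its spread.

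To ask whether genes of the same step changed by different amounts, the log2 ratio of a pair of related genes was taken within each library, where any scaling of the library cancels apart from the pseudocount. The 5 pairs with both rows were compared by an exact two-sided permutation test, in which the 8 libraries can be assigned in 70 ways and the smallest p is 0.0286, with adjustment over the 5 pairs. The ratio of Ldha to Ldhb, the subunit that favours the return of lactate to pyruvate, was higher after running in 4 of 4 libraries. It was 1.28, 2.39, 2.64 and 2.08 in NC against 4.58, 4.13, 5.01 and 3.34 in 0 h p.r. on the log2 scale. The change of the mean was 2.17 (exact p 0.0286, adjusted p 0.0476). The exact p was 0.0571 when NC replicate 1 or NC replicate 4 was left out. Slc2a3 was below the filter on low values, and adjusted over the 4 pairs without it the p of this ratio was 0.0571, so the call depends on counting that pair. In FPKM, Ldha made up 80.5 ± 6.82% of the sum of both subunits at rest and 94.7 ± 2.61% after running, and the ranges of 70.8 to 86.3% and 91.1 to 97.0% did not overlap.

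The lactate transporters gave a like picture. The log2 ratio of Slc16a3 to Slc16a1, which encodes the widely expressed transporter MCT1, was -1.68, -0.02, -0.13 and -0.18 in NC, against 1.83, 0.35, 0.96 and 1.37 in 0 h p.r. The ratio was above 0 in all 4 libraries after running. It was below 0 in all 4 controls, but close to 0 in NC replicates 2 to 4, where FPKM does not settle which of the 2 was more abundant. The change was 1.63, from -0.50 ± 0.79 to 1.13 ± 0.63 (exact p 0.0286, adjusted p 0.0476, or 0.0571 over the 4 pairs). Without NC replicate 1 it was 1.24, and the exact p was 0.0571 when any one of the 4 NC libraries was left out. Slc16a3 took 37.9 ± 11.9% of the FPKM of the 4 lactate transporter genes Slc16a1, Slc16a3, Slc16a7 and Slc16a8 at rest and 66.1 ± 9.85% after running.

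The log2 ratio of Slc2a1 to Slc2a3 was higher by 1.58 after running, and by 1.28 with a pseudocount of 0.1. With at most 11 reads of Slc2a3 this value moves with the pseudocount and is not read as a comparison of the 2 genes. Of the FPKM of the 10 Slc2a genes in the table, Slc2a1 took 12.9 ± 3.76% at rest and 35.3 ± 8.37% after running. The insulin-dependent transporter Slc2a4 took 50.8 ± 5.90% and 38.6 ± 14.9%, and its groups overlapped. For Hk2 against Hk1 the change of 1.50 had an exact p of 0.0571 and an adjusted p of 0.0714, because 0 h p.r. replicate 4 at -2.09 lay below NC replicate 3 at -2.06. Hk2 made up 15.04 ± 4.02% of hexokinase FPKM at rest and 35.1 ± 11.8% after running. For Pdk1 against Pdk4, the kinase induced by fasting and fat use, the change of 0.66 did not pass (exact p 0.114, adjusted p 0.114) and the groups overlapped.

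**Figure D2:**
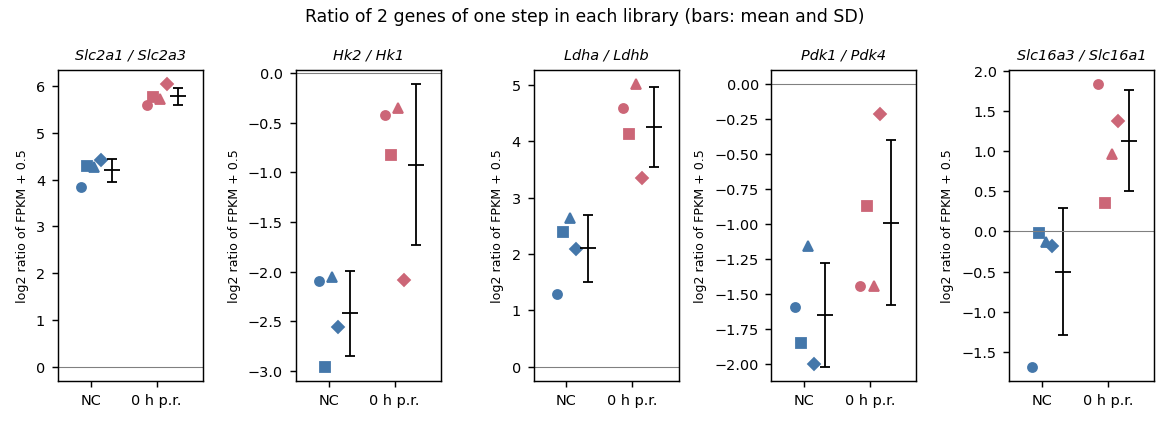
Log2 ratio of FPKM + 0.5 (y axis, own scale in each panel) of the 5 gene pairs in the 4 NC and 4 0 h p.r. libraries (x axis), with a point for each library and the mean and SD beside them (n = 4). The groups do not overlap for Slc2a1/Slc2a3, Ldha/Ldhb and Slc16a3/Slc16a1, and 1 library after running keeps Hk2/Hk1 in the range of the controls.

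Most other glycolysis genes with values were higher in the mean, but no other tested enzyme of the list rose by the test. The list named 28 genes, of which 20 had a row in the table and 19 were tested. Gapdh was not among the 20, so the pathway is covered only in part. Over all 13863 tested genes, 49.9% had a positive log2 fold change and 3127 had an unadjusted p under 0.05 in limma, counting both directions. Of 19 other tested glycolysis genes, 14 had a positive log2 fold change with a list median of 0.46. None passed upward in limma or voom, 6 had an unadjusted p under 0.05 upward, and 1 passed downward. That gene was Ldhb, which fell from 75.4 ± 22.6 to 31.9 ± 9.74 FPKM, a log2 fold change of -1.24 (SE 0.27, adjusted p 0.0335 in limma). Its groups did not overlap, but the call was lost in 6 of the 8 leave-one-out fits, with adjusted p up to 0.105.

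Several of the abundant enzymes had a wide spread after running. Aldolase Aldoa was at 961 ± 299 FPKM at rest and 2325 ± 1914 after running (log2 fold change 0.90, limma adjusted p 0.431). Eno3, the muscle enolase, had a log2 fold change of 1.03 (adjusted p 0.559) and Pgam2, the muscle phosphoglycerate mutase, one of 0.89 (adjusted p 0.651). For the broadly expressed Pkm, pyruvate kinase, it was 0.91 (adjusted p 0.151), and for Eno1 0.35 (adjusted p 0.214). The other largest values were those of the isomerase Tpi1 at 1.44 (adjusted p 0.248) and the muscle phosphofructokinase Pfkm at 1.11 (adjusted p 0.478). Leaving out single libraries gave log2 fold changes of 0.39 to 1.43 for Aldoa, 0.34 to 1.94 for Eno3 and 0.14 to 1.85 for Pgam2. The ranges were 0.99 to 2.03 for Tpi1 and 0.53 to 1.98 for Pfkm, which passed without 0 h p.r. replicate 4 (limma adjusted p 0.0377). Groups that did not overlap upward were found for 2 of the 19, Pgam1 and Pfkl, named after their values were seen, with log2 fold changes of 0.46 and 0.23. Over all tested genes 8.15% were apart upward, and 3 of the 8 HIF targets described here were.

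**Figure D3:**
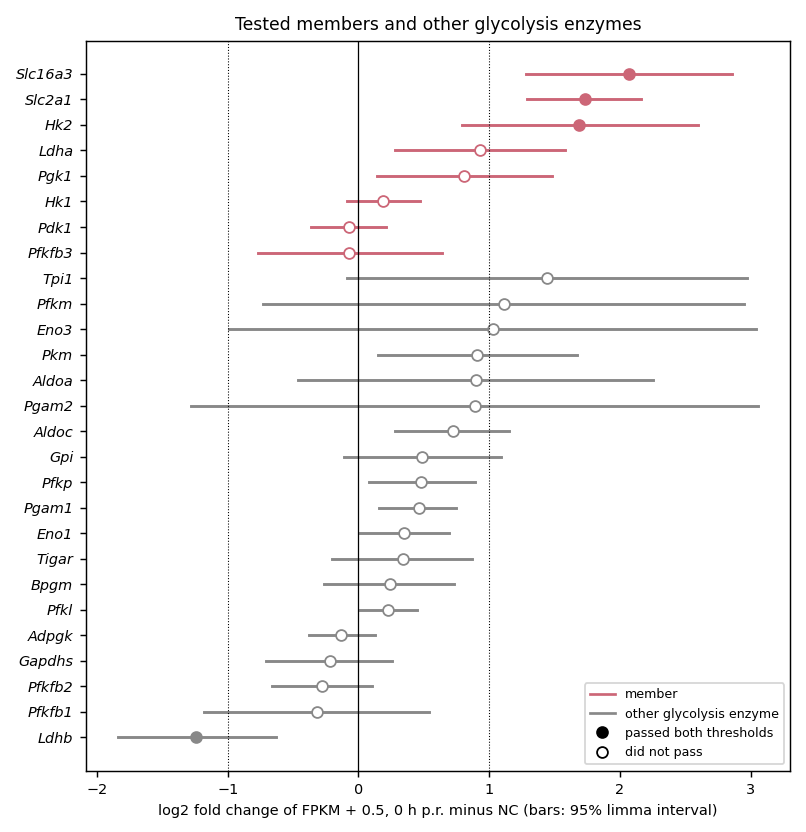
Log2 fold change of FPKM + 0.5, 0 h p.r. minus NC (x axis), with its 95% limma interval (bars) for the 8 tested genes of the set (red) and the 19 other tested glycolysis genes (grey), each sorted by value. Filled points passed both thresholds, and dotted lines mark a fold of 2. Slc16a3, Slc2a1 and Hk2 are filled to the right and Ldhb alone is filled to the left.

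The neighbouring pathways held few changes. For comparison, 3127 of all 13863 tested genes had an unadjusted p under 0.05 in limma, counting both directions. None of the 8 other tested glucose transporter genes passed in either direction in limma or voom, and 1 had an unadjusted p under 0.05, downward. Their largest log2 fold changes were -0.74 for Slc2a13 (adjusted p 0.0762), -0.48 for Slc2a10 and -0.29 for Slc2a8. None of the 7 genes of lactate and pyruvate transport passed, with 1 at an unadjusted p under 0.05 upward and Slc16a1 at 0.44 (adjusted p 0.213), Slc16a7 at -0.29 and Slc16a8 at 0.19. None of the 10 genes of the pyruvate dehydrogenase complex and its regulators passed, with 1 at an unadjusted p under 0.05 downward. Here Pdk4 had a log2 fold change of -0.73 (67.3 ± 8.22 FPKM at rest and 42.2 ± 14.98 after running, adjusted p 0.121), Pdk3 one of 0.23 and Pdp1 one of 0.19. The 6 genes of the pentose phosphate pathway, which branches from glycolysis at its first intermediate, were all lower in the mean with a median of -0.27. None of them passed, 2 had an unadjusted p under 0.05, and the largest values were -0.38 for Pgls, -0.36 for Rpe and -0.32 for Rpia. Among 19 genes of glycogen metabolism and gluconeogenesis 1 passed, the glycogen synthase Gys2 of liver and fat, at 0.888 ± 0.459 FPKM at rest and 0.136 ± 0.0891 after running, with a log2 fold change of -1.08 (adjusted p 0.0382 in limma). Gys2 passed the filter on low values only through NC, where all 4 libraries were above 0.5 FPKM and none was after running, so it had to differ and its call is no support for a fall. That call was lost in 7 of the 8 leave-one-out fits, with adjusted p up to 0.116.

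Some genes of the HIF pathway outside glucose metabolism rose as well. Hif1a, the subunit stabilised by low oxygen, rose from 35.03 ± 3.196 to 76.8 ± 11.3 FPKM, by a log2 fold change of 1.11 (adjusted p 0.00343 in limma), and Egln3, an oxygen-sensing hydroxylase that is itself a HIF target, rose from 8.75 ± 2.30 to 20.9 ± 4.69 (1.22, adjusted p 0.0160, or 0.0531 if 0 h p.r. replicate 3 is dropped). Epas1, which encodes the HIF2 alpha subunit, was at 132 ± 26.1 and 131 ± 18.3 FPKM. Of the 8 tested genes of HIF subunits and sensors, Hif1a and Egln3 passed upward, none passed downward and 6 did not pass. Hif3a was below the filter on low values, at 0.976 ± 0.532 FPKM at rest and 0.202 ± 0.205 after running, without overlap. Of 22 other HIF targets, 5 rose and none fell (none at an unadjusted p under 0.05 downward, and none in voom), with log2 fold changes of 2.33 for Hmox1, 2.25 for Bhlhe40, 1.57 for Ak4, 1.43 for Car9 and 1.03 for Higd1a. Only Bhlhe40, a transcriptional repressor, and Ak4, a mitochondrial adenylate kinase, kept the call in all 8 leave-one-out fits. The 17 others did not pass. The groups were apart upward for 12 of the 22. Over all tested genes 1.8% were called higher and 8.15% were apart upward.

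The genes whose values followed those of Slc2a1 most closely, by the root mean square difference of the log2 values centred on NC over the 8 libraries, were Sdc4 at 0.223, Dusp5 at 0.225 and Tent5c at 0.237. Sdc4 encodes a cell surface proteoglycan of the syndecan family and rose from 28.6 ± 5.95 to 101 ± 23.3 FPKM, and Dusp5, a phosphatase of ERK kinases, rose from 1.43 ± 0.550 to 5.94 ± 0.688. For Hk2 they were AABR07004868.2 at 0.289, Map2k3 at 0.296 and Noct at 0.320. Noct, a deadenylase-like protein with daily rhythms, rose from 3.10 ± 1.04 to 12.2 ± 4.13 FPKM, with its lowest value after running in replicate 4, as for Hk2. Map2k3, a kinase upstream of p38, passed at a limma adjusted p of 0.0426 but lost the call in 6 of the 8 leave-one-out fits. This is a description of these 8 libraries.

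Markers of other tissues differed between the libraries, and several of the genes are expressed in the tissues concerned. In bulk samples fewer cells of a type and less RNA per cell cannot be told apart. Tendon markers were present throughout, at a mean log2 of 8.46 ± 0.40 at rest and 8.59 ± 0.38 after running. No muscle or adipocyte marker was at 0 throughout. Within 0 h p.r. Ldha and Pgk1 had the same order of libraries as the muscle markers, highest in replicate 1, then 3, 2 and 4, whereas Slc2a1 was lowest in replicate 1 and highest in replicate 4. Of the other genes that rose, Slc16a3 was highest in replicate 1, then 3, 4 and 2, and Hk2 in replicate 3, then 1, 2 and 4. Both thus had their 2 highest values in the libraries with the most muscle marker signal. Within NC, Hk2 was lowest in replicate 2 (2.92 FPKM), where the muscle markers summed highest (11111 FPKM). Slc16a3 was lowest in NC replicate 1 (4.88 FPKM), where they summed lowest (5504 FPKM). With the muscle marker mean as a covariate, the adjusted p in limma was 0.0339 for Ldha (log2 fold change 0.82) and 0.0393 for Pgk1 (0.68), while Slc2a1, Slc16a3 and Hk2 kept their calls. All 11 adipocyte markers were lower after running in the mean and 6 of them passed. A limma fit with the mean of this list as a covariate called none of the 13863 genes, with 890 at an unadjusted p under 0.05. In that fit Slc2a1 had a log2 fold change of 1.54 (adjusted p 0.660), Hk2 0.84 (0.924), Slc16a3 0.59 (0.894), Ldha 0.05 (0.997) and Pgk1 -0.16 (0.986), so the change of these genes and the adipocyte difference cannot be told apart. Bone and cartilage markers were higher after running, by 1.56 and 1.69 in the mean log2, with overlapping groups. None of the 6 tested genes of either list passed in limma. There 5 bone and 4 cartilage genes had an unadjusted p under 0.05 upward, and voom called 1 bone gene and no cartilage gene. Over all 13863 tested genes 3127 had an unadjusted p under 0.05 in limma, counting both directions. The bone gene Phex was at 0.227 ± 0.0866 FPKM at rest and 0.791 ± 0.0806 after running (limma adjusted p 0.0243, fold 1.78). It passed the filter on low values only through 0 h p.r., so it had to differ and a call of it is no support for a rise. The cartilage list summed to 19.5 to 106 FPKM at rest and 112 to 419 after running, the bone list to 11.99 to 58.9 and 57.6 to 179. Their part in the results was not tested.

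**Figure D4:**
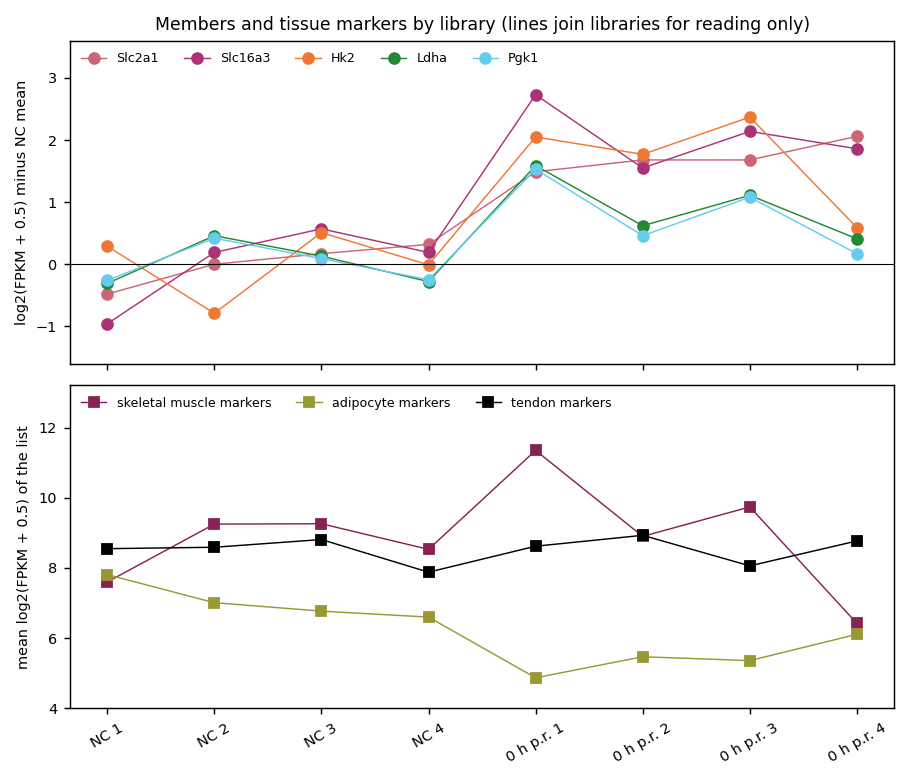
Top, log2(FPKM + 0.5) minus the NC mean of Slc2a1, Slc16a3, Hk2, Ldha and Pgk1 (y axis) in the 8 libraries (x axis). Bottom, mean log2(FPKM + 0.5) of the skeletal muscle, adipocyte and tendon marker lists in the same libraries. Ldha and Pgk1 after running go up and down with the muscle markers, Slc16a3 and Hk2 are highest in the 2 libraries where these are highest, Slc2a1 stays between 1.49 and 2.06, and the adipocyte list is lower in all 4 libraries after running.

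The libraries held 11350560 to 17897056 recovered reads, and no pair within a group was a near copy. Pearson's r between libraries was 0.951 to 0.974 within NC, 0.921 to 0.969 within 0 h p.r. and 0.918 to 0.958 between the groups, taken across the log2 values of tested genes, which are not independent replicates. The mitochondrial share of FPKM was 31.1% for NC replicate 2 and 16.3 to 21.9% for the others. NC replicate 2 also held the fewest reads, and its FPKM total was 900138 against 554130 to 746030 for the others. In the fit with array weights it had the lowest weight, 0.238.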

How the data were processed

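The libraries were grouped and numbered from the sample labels. The authors aligned reads of stranded polyadenylated RNA libraries to the rat build Rnor_6.0 with HISAT2 (v2.1.0), counted them per gene with featureCounts (v1.6.3) and deposited FPKM values of 15590 genes for the 8 libraries. HISAT2, featureCounts and DESeq2 (v1.30.1) are also named in the submitters' processing notes. The table's log2 fold changes and p-values of the authors' own comparison were not used.

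Whole reads were recovered from the steps between the FPKM values for 15590 of 15590 genes and served for depth and for a voom fit. The filter on low values asked for 0.5 FPKM or more in 4 or more of the libraries and left out 1727 genes. Groups were compared on log2(FPKM + 0.5) with limma (v3.58.1, lmFit and eBayes with a trend, two-sided) in R (v4.3.3) with no covariate, and p-values were adjusted over 13863 genes by the Benjamini-Hochberg method. The thresholds were 0.05 for the adjusted p and 2 for the fold. These fold changes understate the change of genes with low values. Gene pairs were compared by an exact permutation test (Python v3.11.15), and 1 of the 6 pairs listed, Pfkfb3 with Pfkfb4, was not run. The fit was tested on simulated data, where the share of false calls was above the threshold, so calls near it are less certain than their adjusted p. Promoter sequences and their coordinates were those of RefSeq (GRCr8), another build than that of the table. Gene coordinates on the build of the table are not given.

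The genes of the set, the other gene lists and the marker lists were chosen with earlier results of these data known, and no test was made over a list. A gene of the list of other HIF targets is not reported here and is left out of its counts. Named were, besides the set, the genes of each metabolic and HIF list past both thresholds or else the 3 with the largest log2 fold change, the 5 most abundant glycolysis genes, the second gene of each pair, Hif1a, Epas1 and Egln3, and the 3 genes nearest to Slc2a1 and to Hk2. Tpi1, Pfkm, Pgam1, Pfkl, Slc2a4, Hif3a, Phex, Myh7 and Mb were named outside this rule, after their values were seen. Alternatives were other pseudocounts (0.1 and 1), other filters (none, or a mean of 2 FPKM), quantile, median-ratio and equal-total (TPM) scaling, the replicate number as a block, muscle or adipocyte markers as a covariate, array weights, voom, the adjusted p alone and leaving out each library. Leaving out 2 libraries together and adjusting over 4 pairs were added after seeing the data.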

Additional observations from a re-analysis of the deposited data

Results flagged for a closer look

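Among 120 groups of 4 values examined, 4 had a library far from the other 3, with a gap to its nearest neighbour over the range of the group above Dixon's 95% critical value. Chance gives about 1 in 20 such groups. Pfkfb3 in NC replicate 1 was at 60.7 FPKM, above the other controls, with a gap of 0.842 of the range. The log2 ratio of Slc16a3 to Slc16a1 in NC replicate 1 was -1.68, below the other controls, with a gap of 0.904 of the range. Dusp5 in 0 h p.r. replicate 2 was at 6.97 FPKM, with a gap of 0.944 of the range, and the mean log2 level of the Schwann cell markers in the same library was 4.85, with a gap of 0.937 of the range.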

How the results depend on the processing

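Across 21 alternatives Slc2a1 kept its call in all but the adipocyte covariate. The count of the set past both thresholds, 3, became 1 (Slc2a1) with the replicate number as a block, 0 with the adipocyte covariate, 2 with TPM scaling (without Hk2) and 4 with array weights, where Ldha passed both (log2 fold change 1.01, adjusted p 0.0222). It was 2, without Hk2, in 7 of the 8 leave-one-out fits, and 3 only without 0 h p.r. replicate 4. Leaving out 0 h p.r. replicates 1 and 4 together gave 2, Slc2a1 and Hk2. By adjusted p alone the count of the set was 1 with the block, 0 with the adipocyte covariate, and 5 with the muscle covariate or with array weights, where Ldha and Pgk1 joined. The block gave adjusted p of 0.0536 for Hk2 and 0.0594 for Slc16a3, and in the pairs, whose smallest p with 4 pairs is 0.125, unchanged values of 1.58 (Slc2a1/Slc2a3), 2.17 (Ldha/Ldhb) and 1.63 (Slc16a3/Slc16a1). The last 2 had an adjusted p of 0.0571 over the 4 pairs without Slc2a3, an adjustment chosen after seeing the data. Libraries of one number did not deviate together (r -0.141, -0.071, 0.072 and 0.006), and none was closest to its own number. Other glycolysis enzymes past both thresholds numbered 0 with TPM scaling or the adipocyte covariate and 2 with the muscle covariate (Tpi1 beside Ldhb). Other HIF targets numbered 3 with TPM scaling and 0 with the adipocyte covariate. All genes numbered 166 with TPM scaling, 212 with the block, 0 with the adipocyte covariate and 793 by the adjusted p alone. The median of the set was 0.31 with the adipocyte covariate. In that fit the sign turned for Pfkfb3 (0.42), Pgk1 (-0.16), Pdk1 (0.18), Aldoa (-1.33), Pkm (-0.29), Eno3 (-2.60), Pgam2 (-3.15), Tpi1 (-0.96), Pfkm (-2.17), Pdp1 (-0.15), Slc2a13 (0.02), Slc2a10 (0.19) and Slc16a7 (0.15). Without 0 h p.r. replicates 1 and 4, Pfkfb3 was at 0.18 and Epas1 at 0.04, and Epas1 was at 0.00 with median-ratio scaling and 0.02 with voom. The cause of these differences was not tested. Leaving out each library gave 195 (0 h p.r. replicate 2) to 516 (0 h p.r. replicate 4) genes, with 201 without 0 h p.r. replicate 3 and 217 without NC replicate 1. It gave a set median of 0.64 to 1.06, 0 to 2 other glycolysis enzymes, 2 to 5 other HIF targets, with 2 when NC replicate 1, 0 h p.r. replicate 2 or 0 h p.r. replicate 3 was left out, and changes of 1.89 to 2.48 (Ldha/Ldhb), 1.31 to 1.89 (Hk2/Hk1) and 1.24 to 1.89 (Slc16a3/Slc16a1). Pfkfb3 ranged from -0.22 to 0.25 and Epas1 from -0.14 to 0.08. Slc2a3, with at most 11 reads, was limited by depth.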
